A study of Mus musculus with 12 samples.

Results

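Called peaks of histone H3 modifications were examined over 10 genes that mark or regulate the stem cells of the mouse small intestine: Lgr5, Rnf43, Znrf3, Axin2, Tnfrsf19, Ascl2, Sox9, Olfm4, Smoc2 and Msi1. They were chosen by name out of 21826 protein-coding genes of the GENCODE M21 annotation of GRCm38. A peak was assigned to a gene when it overlapped the gene body or the 5 kb on either side of it. This gave 153 peaks out of the 169072 of the 8 lists. The lists came from ChIP-seq of whole small-intestinal crypts and of villi with antibodies to H3K4me3, H3K4me1, H3K27me3 and H3K9me3. Villi had been scraped off the opened intestine and crypts released from the remaining tissue in EDTA, and neither compartment was sorted by cell type. Strain, age and number of mice are not given in the sources used here. Every immunoprecipitation, in crypts as in villi, contained 5% of Drosophila S2 chromatin as a spike-in. Since each compartment had a single library per modification, differences between crypts and villi were not replicated and were not tested. Read counts are not part of the lists and sequencing depth is unknown, and a place without a peak is a place where none was called, not one that lacks the modification. In such bulk tissue, fewer cells that carry a modification and less of it in each cell cannot be told apart.

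Intestinal stem cells sit at the base of the crypts and divide there, and their descendants differentiate while they move up onto the villi, where the modifications of stem cell genes can be compared with the crypts. Wnt signalling maintains these cells. R-spondins bind Lgr5 and protect the Frizzled receptors from the ubiquitin ligases Rnf43 and Znrf3, and the resulting β-catenin activity switches on its own antagonists as well as the transcription factor Ascl2. H3K4me3 marks active promoters and also bivalent ones, where it lies together with H3K27me3, the modification deposited by the Polycomb repressive complex 2. H3K4me1 is found at enhancers and on the flanks of active promoters, and H3K9me3 in heterochromatin.

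All 10 genes had H3K4me3 and H3K4me1 peaks in crypts, where 63.2% and 69.1% of protein-coding genes did. In villi, 9 had H3K4me3 and all 10 had H3K4me1, against 63.5% and 68.8%. Over the set, H3K4me3 and H3K4me1 covered fewer bases in villi than in crypts, and H3K27me3 covered more. H3K4me3 peaks covered 44975 bp in crypts and 29187 bp in villi, and H3K4me1 peaks 145503 bp and 93319 bp. Each of the 10 genes had the lower value in villi for both modifications, where over all protein-coding genes with a peak 57.4% were lower for H3K4me3 and 48.0% for H3K4me1. For H3K4me1 this held with the 5 kb flanks but not for the gene body alone, where the log2 ratio, villi over crypts, was 0.0 at Ascl2 and 0.0057 at Sox9, nor with the top 50% of each list, where Sox9 was at 1.78. H3K27me3 peaks covered 11929 bp in crypts and 39974 bp in villi. A difference of at least 1.5-fold in covered bases, or a peak in 1 compartment alone, was counted as a call. For H3K4me3, 5 of the 10 genes were called lower in villi and 0 higher, against 5.0% and 6.3% of the 14112 protein-coding genes with a peak in either compartment. With the top 50% of each list, 2 of the 10 were called lower: Smoc2, which was among the 5, and Znrf3, which was not. The Znrf3 peak ranked by score at 50.1% in crypts and 49.6% in villi, on either side of that cut. At Lgr5, Olfm4, Tnfrsf19 and Msi1 no H3K4me3 peak was left in either list. Start-site peaks were then found at 5 of the 10 genes in crypts but at 3 in the villi list. For H3K4me1, 5 of 10 were lower and 0 higher, against 15.8% and 14.7% of 15682 genes. H3K27me3 was called higher in all 5 genes that carried it and lower in none, but 56.7% of the 5185 genes with this modification were called higher and 4.74% lower. For H3K27me3 the 5 genes thus went the way of most genes that carry it. No H3K9me3 peak of either list touched a gene of the set, and 3.89% of all genes had such a peak in crypts and 3.12% in villi.

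**Figure D1:**
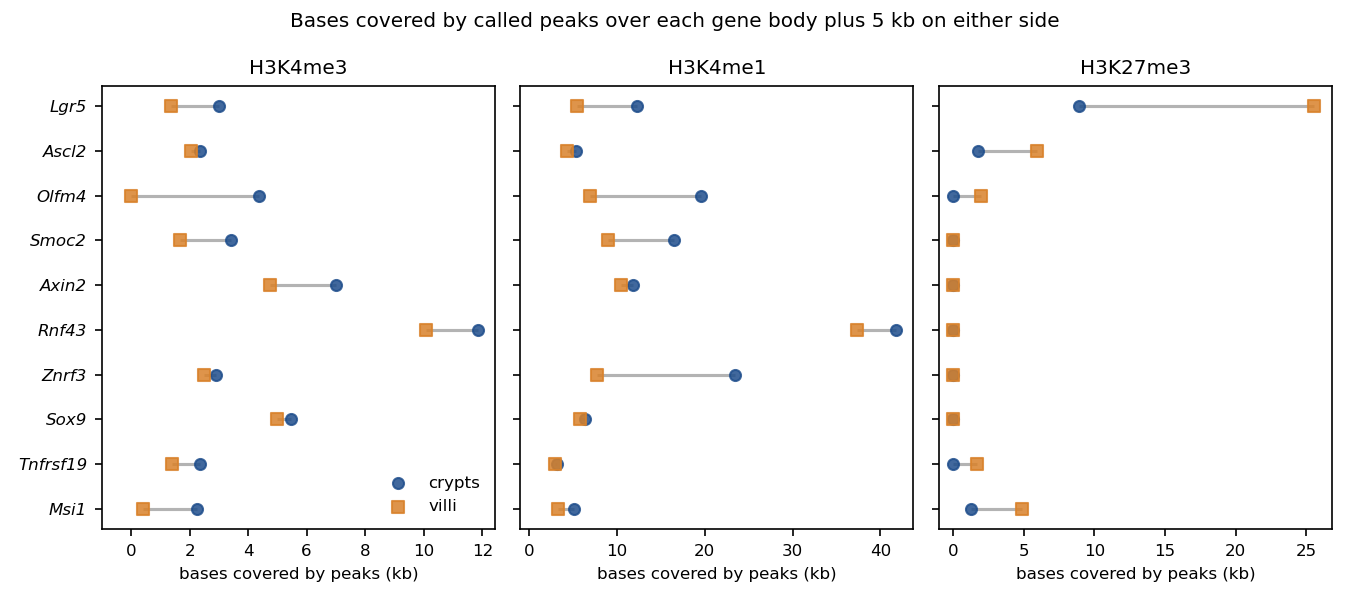
Bases covered by called peaks (kb) over each gene body plus 5 kb on either side, for 3 modifications, with crypts as circles and villi as squares, with 1 library each. For H3K4me3 and H3K4me1 the villi square lies to the left of the crypts circle at all 10 genes, and for H3K27me3 it lies to the right at the 5 genes that carry peaks, most of all at Lgr5.

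Lgr5, the R-spondin receptor whose expression defines crypt base stem cells, lies on the reverse strand of chromosome 10 from 115450311 to 115587780. Its single H3K4me3 peak extended in crypts from 115585258 to 115588246, over 2989 bp. In villi it extended from 115586328 to 115587683, over 1356 bp, and was 2.2-fold narrower. The crypts peak spanned both coding start sites, at 115587780 and 115587493, and the villi peak only the second of them. Scores were read as the authors' −log10 p-values. The peak's rank in its list by score was 34.5% in crypts (that share of peaks at or below it) and 13.0% in villi. Such ranks place a peak in its own list, and a difference of ranks between lists is not a measured change in strength. H3K4me1 was called in 7 peaks over 12236 bp in crypts and 4 peaks over 5503 bp in villi. The H3K4me1 peak over the start site was also narrower in villi, 2666 bp against 3131 bp, while its score rank was 33.4% in the crypts list and 97.1% in the villi list. H3K27me3 covered 8915 bp of the locus in 6 peaks in crypts and 25537 bp in 10 peaks in villi, a 2.86-fold difference. At the start site the H3K27me3 peak measured 877 bp in crypts but 3161 bp in villi, where it covered the whole of the H3K4me3 peak.

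Rnf43 and Znrf3, the transmembrane ligases that remove Frizzled receptors, differed less in H3K4me3 at their start sites. The Rnf43 start-site peak of H3K4me3, on chromosome 11 from 87662520 to 87669246 in crypts, had a width of 6727 bp there, and of 5607 bp in villi. A further H3K4me3 peak in the Rnf43 window, 2313 bp in crypts and 2100 bp in villi, lies at the start site of the neighbouring gene Supt4a. Rnf43 had the most H3K4me1 of the set, with 41832 bp in crypts and 37321 bp in villi, which is 50.5% and 45.1% of its window. These sums include peaks near the Supt4a start site, of 1878 bp and 758 bp in crypts and 1186 bp and 435 bp in villi. A peak inside the gene, from 87687151 to 87692772, ranked at 99.4% of the crypts list, and its villi counterpart from 87687180 to 87692305 at 99.5%. Znrf3, on the reverse strand of chromosome 11 from 5276324 to 5444847, had H3K4me3 over 2916 bp at its start site in crypts and 2504 bp in villi. Its H3K4me1 was another matter, with 11 peaks over 23431 bp in crypts against 6 peaks over 7782 bp in villi. The difference was 3.01-fold. Of the 11 crypts peaks of Znrf3, 8 had no counterpart in villi, and 2 of the 6 villi peaks had none in crypts. The strongest of its crypts peaks, from 5304827 to 5308341, measured 3515 bp at a rank of 97.5%, and its villi counterpart 2498 bp at 48.2%. No H3K27me3 peak was called over either ligase gene.

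Axin2 and Tnfrsf19 restrain Wnt signalling: Axin2 is a scaffold of the complex that destroys β-catenin and a direct Wnt target, and Tnfrsf19, also known as Troy, is a TNF receptor family member of crypt base cells. At Axin2, on chromosome 11 from 108920349 to 108950783, the start-site H3K4me3 peak was 6310 bp in crypts and 4342 bp in villi. This 1.45-fold difference lies just inside the limit for a call. Its score rank was 62.8% in the crypts list and 81.1% in the villi list. Axin2 H3K4me1 covered 11864 bp and 10489 bp, and no H3K27me3 was called. Tnfrsf19, on the reverse strand of chromosome 14 from 60963875 to 61046490, had 2 H3K4me3 peaks at separate start sites in both compartments. The outer one measured 1777 bp in crypts but 988 bp in villi, and the inner one 567 bp and 395 bp. Its H3K4me1 was nearly the same, at 3221 bp and 3005 bp. H3K27me3 was called in villi alone, in a peak of 1188 bp upstream of the outer start site and one of 497 bp at the inner site.

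The RefSeq promoter table of GRCm38.p6 held 5 of the 10 genes: Ascl2, Rnf43, Axin2, Tnfrsf19 and Olfm4. The 250 bases before the RefSeq starts of both Tnfrsf19 promoters, near which H3K27me3 was called in villi alone, and of Axin2, which had no H3K27me3 peak in either compartment, are shown 5′ to 3′ on the gene's strand. Capitals mark matches, on either strand, to the core of TCF/LEF sites (CTTTGAT or CTTTGTT), which mediate Wnt responses, to the E-box CAGCTG, or to TTTATNG, a core bound by CDX factors. None of these motifs overlaps another in the stretches printed.
Tnfrsf19 outer promoter, reverse strand, chr14:61046856-61047105: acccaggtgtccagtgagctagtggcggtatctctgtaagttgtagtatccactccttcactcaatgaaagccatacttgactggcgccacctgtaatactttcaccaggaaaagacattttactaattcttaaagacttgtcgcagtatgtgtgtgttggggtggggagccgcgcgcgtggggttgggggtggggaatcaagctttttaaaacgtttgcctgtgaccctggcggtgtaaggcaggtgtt
Tnfrsf19 inner promoter, reverse strand, chr14:61037988-61038237: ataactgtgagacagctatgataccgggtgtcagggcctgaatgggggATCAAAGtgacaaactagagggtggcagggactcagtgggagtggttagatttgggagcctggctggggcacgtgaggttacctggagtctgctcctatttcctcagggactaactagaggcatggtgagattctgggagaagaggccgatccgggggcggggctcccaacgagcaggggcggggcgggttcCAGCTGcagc
Axin2 promoter, forward strand, chr11:108920099-108920348: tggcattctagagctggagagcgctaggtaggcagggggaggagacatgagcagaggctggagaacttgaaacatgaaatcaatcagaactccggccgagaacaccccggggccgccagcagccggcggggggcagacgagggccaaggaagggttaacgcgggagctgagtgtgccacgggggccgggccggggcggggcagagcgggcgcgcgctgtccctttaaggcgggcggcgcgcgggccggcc
The inner Tnfrsf19 promoter held 1 TCF/LEF match and 1 E-box, whereas the outer one and the Axin2 promoter held no match to any of the 3 motifs. Over all 32851 promoters of the table, 8.06% held a TCF/LEF match, 13.0% an E-box and 9.81% a CDX match in these 250 bases. A match is a run of letters and not a measured binding site.

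Ascl2 and Sox9 are transcription factors of crypt cells: Ascl2 maintains the stem cell programme, and Sox9 is expressed in stem, progenitor and Paneth cells. Ascl2, on the reverse strand of chromosome 7 from 142966829 to 142969264, had H3K4me3 over 2358 bp in crypts and 2045 bp in villi and H3K4me1 over 5316 bp and 4282 bp. Neither was called different. Its H3K27me3 covered 1753 bp in crypts, from 142968851 to 142970603, and 5923 bp in villi, in peaks of 1936 bp and 3987 bp, a 3.38-fold difference. At Sox9, on chromosome 11 from 112782224 to 112787760, H3K4me3 covered 5480 bp in crypts and 4987 bp in villi, at ranks of 83.0% and 52.9%. H3K4me1 lay on both sides of the Sox9 start site in crypts, in peaks of 1683 bp and 4695 bp, and in villi in 1 peak of 5767 bp across the start site. Within 1 kb of that site it covered 530 bp in crypts and all 2001 bp in villi, while H3K4me3 covered all of it in both. No H3K27me3 was called over Sox9.

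Olfm4 and Smoc2 encode secreted proteins of stem cells, an olfactomedin and a matricellular calcium-binding protein. Olfm4, on chromosome 14 from 79984081 to 80023139, was the only gene of the set that had an H3K4me3 peak in crypts and none in villi. Among all genes with H3K4me3 at a start site in crypts, 1.84% had none there in villi. The crypts peak ran from 80000308 to 80004695 (4388 bp), directly downstream of the coding start sites at 80000251 and 80000302, and was not among the strong ones, with a rank of 24.8%. An H3K27me3 peak of 1956 bp was called in villi, from 80003351 to 80005306, across the 3′ end of that region, at a rank of 12.5%. H3K4me1 over Olfm4 covered 19614 bp in 7 peaks in crypts and 6890 bp in 6 peaks in villi. Smoc2, on chromosome 17 from 14279506 to 14404790, had a start-site H3K4me3 peak of 3402 bp in crypts, and one of 1689 bp, 2.01-fold narrower, in villi, at ranks of 63.3% and 36.2%. The 4 H3K4me1 peaks of Smoc2 had counterparts in villi and were all narrower there, with 16473 bp in total against 8958 bp. One of them, from 14283792 to 14291097, measured 7306 bp in crypts and 2433 bp in villi. No H3K27me3 was called over Smoc2.

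The stretches below show the Olfm4 promoter, up to the first coding start site, and the middle 300 bases of a pair of H3K4me1 peaks upstream of it, the strongest crypts peak of the locus and the wider of its 2 crypts peaks without a counterpart in villi. For comparison, the middle of an H3K4me1 peak inside Axin2 is given, which had counterparts in villi. All are on the forward strand, with the same motifs in capitals.
Olfm4 promoter, chr14:80000052-80000250: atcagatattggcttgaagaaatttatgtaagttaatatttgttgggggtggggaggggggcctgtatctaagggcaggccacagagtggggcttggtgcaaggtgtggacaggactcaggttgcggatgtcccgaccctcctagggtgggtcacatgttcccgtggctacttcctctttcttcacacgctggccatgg
Olfm4 H3K4me1 peak with a villi counterpart, chr14:79985982-79986281: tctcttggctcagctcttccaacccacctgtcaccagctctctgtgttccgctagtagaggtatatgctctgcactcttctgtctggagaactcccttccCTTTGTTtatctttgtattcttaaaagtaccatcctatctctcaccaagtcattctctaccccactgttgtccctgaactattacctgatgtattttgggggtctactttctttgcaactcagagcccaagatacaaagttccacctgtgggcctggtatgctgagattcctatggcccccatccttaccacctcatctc
Olfm4 H3K4me1 peak found in crypts alone, chr14:79990460-79990759: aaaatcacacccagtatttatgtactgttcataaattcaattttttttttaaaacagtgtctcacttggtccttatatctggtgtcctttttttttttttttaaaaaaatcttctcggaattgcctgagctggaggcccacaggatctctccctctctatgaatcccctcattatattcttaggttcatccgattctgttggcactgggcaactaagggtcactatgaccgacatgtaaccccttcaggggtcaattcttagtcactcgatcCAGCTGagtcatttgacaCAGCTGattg
Axin2 H3K4me1 peak, chr11:108927661-108927960: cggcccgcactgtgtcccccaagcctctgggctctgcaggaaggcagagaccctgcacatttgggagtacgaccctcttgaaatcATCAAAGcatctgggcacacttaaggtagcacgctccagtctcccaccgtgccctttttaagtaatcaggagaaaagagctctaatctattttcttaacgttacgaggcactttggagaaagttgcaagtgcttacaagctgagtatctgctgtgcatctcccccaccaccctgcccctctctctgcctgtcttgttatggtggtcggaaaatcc
The shared Olfm4 peak ranked at 89.5% in crypts and measured 4445 bp there and 1619 bp in villi, and its middle held 1 TCF/LEF match. The peak without a counterpart measured 2741 bp, ranked at 72.8%, and its middle held 2 E-boxes. The other such peak, 514 bp wide and downstream of the coding start sites, held 1 TCF/LEF match and 1 E-box in its middle. Both peaks without a counterpart lie inside the annotated gene body. The Axin2 peak, 5274 bp in crypts and divided into peaks of 2220 bp and 2385 bp in villi, held 1 TCF/LEF match, and most of its middle lay in the gap between those villi peaks. Over the 10 genes, the middle 300 bases of 13 of the 52 crypts H3K4me1 peaks held a TCF/LEF match (25.0%), against 13.4% of all 54642 crypts peaks. The same count was 11 of 44 in villi (25.0%), against 12.8%. E-boxes were in 11 of the 52 crypts peaks (21.2%, against 16.4% of all) and CDX matches in 7 (13.5%, against 16.1%). In villi, E-boxes were in 5 of the 44 peaks (11.4%, against 16.7%) and CDX matches in 4 (9.09%, against 15.3%). Crypts and villi peaks of a gene mostly share sequence, so the counts of the compartments are not separate observations.

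Msi1, an RNA-binding protein of the Musashi family, lies on chromosome 5 from 115429599 to 115455698. H3K4me3 was called there in peaks of 495 bp and 1754 bp in crypts, on either side of the first start site, and in a single peak of 396 bp in villi. That villi peak had a rank of 0.289%, at the very limit of the peak calling, and the 5.68-fold difference in covered bases was the largest among the 9 genes with an H3K4me3 peak in both compartments. H3K4me1 covered 5138 bp in crypts and 3322 bp in villi. H3K27me3 covered 1261 bp upstream of the gene in crypts. In villi it covered 4873 bp, upstream in a peak of 3081 bp and also inside the gene in peaks of 1258 bp and 534 bp.

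The narrowing of H3K4me3 lay mainly on the side of the gene body. At each of the 9 genes with a start-site peak in both compartments, the highest-scoring peak was narrower in villi, as it was at 59.4% of 12271 protein-coding genes. The downstream edge, in the direction of transcription, ended earlier in villi by a median of 859 bp over the 9 genes, and the upstream edge by a median of 98 bp. Over all genes these medians were 29 bp and 16 bp. The downstream edge was at least 500 bp shorter in villi at 6 of the 9 genes: Axin2 (1939 bp), Smoc2 (1581 bp), Rnf43 (1205 bp), Lgr5 (1070 bp), Msi1 (859 bp) and Tnfrsf19 (695 bp). All genes reached this in 4.19% of cases. At the upstream edge it was reached by Lgr5 alone, with 563 bp, and by 1.61% of all genes. Sox9 was the gene whose upstream edge receded more, by 310 bp against 183 bp. In crypts, the median width of these peaks over all genes was 1979 bp and the upper quartile 2656 bp. Axin2, Rnf43, Sox9, Smoc2, Lgr5 and Znrf3 exceeded that quartile, and Ascl2, Tnfrsf19 and Msi1 did not. The distances in bp were not matched for width, so they do not compare like with like. As a ratio, villi over crypts, the median log2 width was -0.54 over the 9 genes and -0.04 over all. These edges were examined after the widths had been seen.

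**Figure D2:**
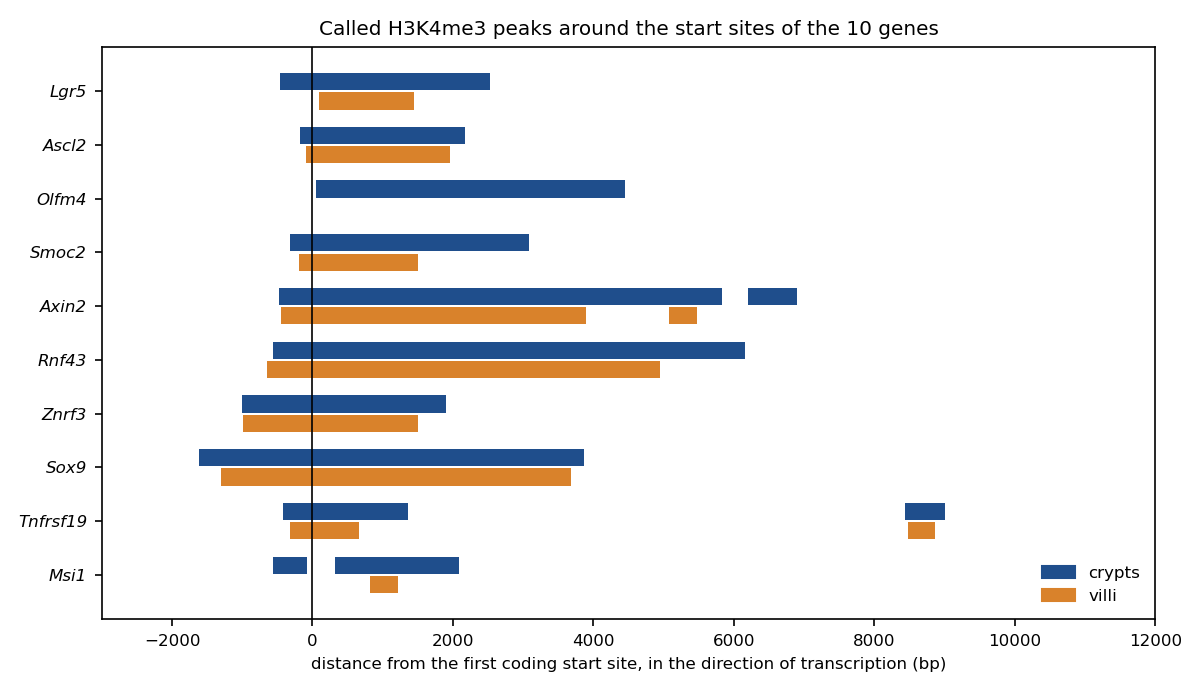
Called H3K4me3 peaks in crypts and villi by their distance in bp from the first coding start site of each gene, drawn in the direction of transcription, from 3000 bp before the site to 12000 bp after it. The left ends of both bars nearly coincide at Axin2, Rnf43, Znrf3 and Smoc2, whereas the right ends stop earlier in villi at all 9 genes with both bars, and Olfm4 has no bar in villi.

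Summed over all start sites of a gene, H3K4me3 was at least 1.5-fold narrower in villi at 5 of the 10 genes, Lgr5, Olfm4, Smoc2, Tnfrsf19 and Msi1, and wider at none. Of the 12870 genes with such a peak, 4.81% were narrower and 5.12% wider. The 5 genes had summed widths between 2249 bp and 4388 bp and ranks from 24.8% to 63.3% in crypts. The other 5 genes differed by factors from 1.1 at Sox9 to 1.45 at Axin2, and all of them were narrower in villi.

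Start-site H3K4me3 was found at all 10 genes in crypts and at 9 in villi (57.7% and 57.9% of all genes). Of the 16 H3K4me3 peaks of the set in crypts, 3 had no counterpart in villi, 1 each at Olfm4, Axin2 and Msi1 (6.68% of the whole list had none). Of the 15 in villi, 1 had none in crypts, at Rnf43 (9.37%). With a reciprocal overlap of 50% these counts were 8 in crypts and 7 in villi. With a counterpart allowed within 1 kb they were 1 and 1, and with equal numbers of peaks per list 4 and 0.

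H3K4me1 peaks were fewer in villi, 44 against 52, and 16 of the crypts peaks had no counterpart there (18.3% of the whole crypts list had none). Of these 16 peaks, Znrf3 held 8, Lgr5 3 and Olfm4 2, and Axin2, Rnf43 and Msi1 1 each. In villi, 3 of the 44 peaks had no crypts counterpart, 2 at Znrf3 and 1 at Tnfrsf19, whereas 17.9% of the villi list had none. These counts rest on an overlap of 1 bp, and with a reciprocal overlap of 50% they were 28 in crypts and 20 in villi. Called lower in villi were Znrf3 (3.01-fold), Olfm4 (2.85-fold), Lgr5 (2.22-fold), Smoc2 (1.84-fold) and Msi1 (1.55-fold). The calls of Lgr5 and Smoc2 ended with the top 50% of each list or a score of at least 20, at log2 ratios of -0.46 and -0.44. That of Msi1 ended with the gene body alone (-0.50), with peaks under 1 kb apart merged (-0.32) and with the top 50% (-0.30). The other 5 genes lay between 1.07-fold at Tnfrsf19 and 1.24-fold at Ascl2. Every one of the 10 genes had an H3K4me1 peak within 1 kb of a start site in both compartments, as did 57.9% of all genes in crypts and 56.1% in villi. With the top 50% of each list, 6 of the 10 had one in crypts and 8 in villi. At Znrf3 the H3K4me1 peaks near a start site also covered less in villi, 884 bp against 4521 bp in crypts, while start-site H3K4me3 there differed by 1.16-fold.

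H3K27me3 divided the set into those that carried it, Lgr5, Ascl2 and Msi1 in both compartments and Olfm4 and Tnfrsf19 in villi alone, and those that did not, Smoc2, Axin2, Rnf43, Znrf3 and Sox9. Among all genes 17.9% had an H3K27me3 peak over this window in crypts and 23.0% in villi. Of the 7 genes of the set without H3K27me3 in crypts, 2 had it in villi, against 7.14% of all genes without it in crypts. All 8 H3K27me3 peaks of the set in crypts had a counterpart in villi (9.63% of the whole list had none), while 10 of the 18 villi peaks had none in crypts, and 55.6% of the whole villi list had none. These counts rest on an overlap of 1 bp, and with a reciprocal overlap of 50%, 7 crypts and 17 villi peaks had no counterpart. The villi list is the longer one, with 13797 peaks against 7611. When it was limited to its 7611 highest scores, H3K27me3 was still higher in villi at Lgr5, Ascl2, Msi1 and Tnfrsf19, and the Olfm4 peak was no longer in the list. With the top 50% of each list or a score of at least 20, only 3 genes were called higher, Lgr5, Ascl2 and Msi1. The Tnfrsf19 peaks, at ranks of 44.1% and 47.6% and scores of 13.4 and 13.9, were then no longer in the villi list.

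The overlap of H3K4me3 with H3K27me3 took in a larger part of the Lgr5 peak in villi, whereas the number of overlapping peaks depended on the lists compared. In crypts, 3 of 16 H3K4me3 peaks of the set overlapped H3K27me3, 1 each at Lgr5, Ascl2 and Msi1, against 9.78% of all peaks in the list. In villi it was 4 of 15, with the inner Tnfrsf19 peak added, against 11.2%. With equal numbers of peaks per list the counts were 3 in crypts and 2 in villi, and with an overlap of at least 500 bp they were 2 and 2. The overlap covered 22.3% of the H3K4me3 peak at Lgr5 in crypts and 100.0% of it in villi. At Ascl2 it covered 25.4% of the peak in crypts and 80.8% in villi, but the villi value includes an H3K27me3 peak at a rank of 7.05%, which is not among the 7611 highest scores of that list. At Msi1 the overlap in crypts lay in the small upstream peak, 76.6% of it, and in villi in the only peak left, 63.4% of it. H3K4me1 peaks met H3K27me3 in 5 of 52 cases in crypts and 9 of 44 in villi, against 4.88% and 6.62% of all H3K4me1 peaks. At Lgr5, 3 of the 7 crypts peaks and 4 of the 4 villi peaks of H3K4me1 overlapped H3K27me3. An overlap in bulk tissue does not show that both modifications were on the same nucleosome or in the same cell.

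**Figure D3:**
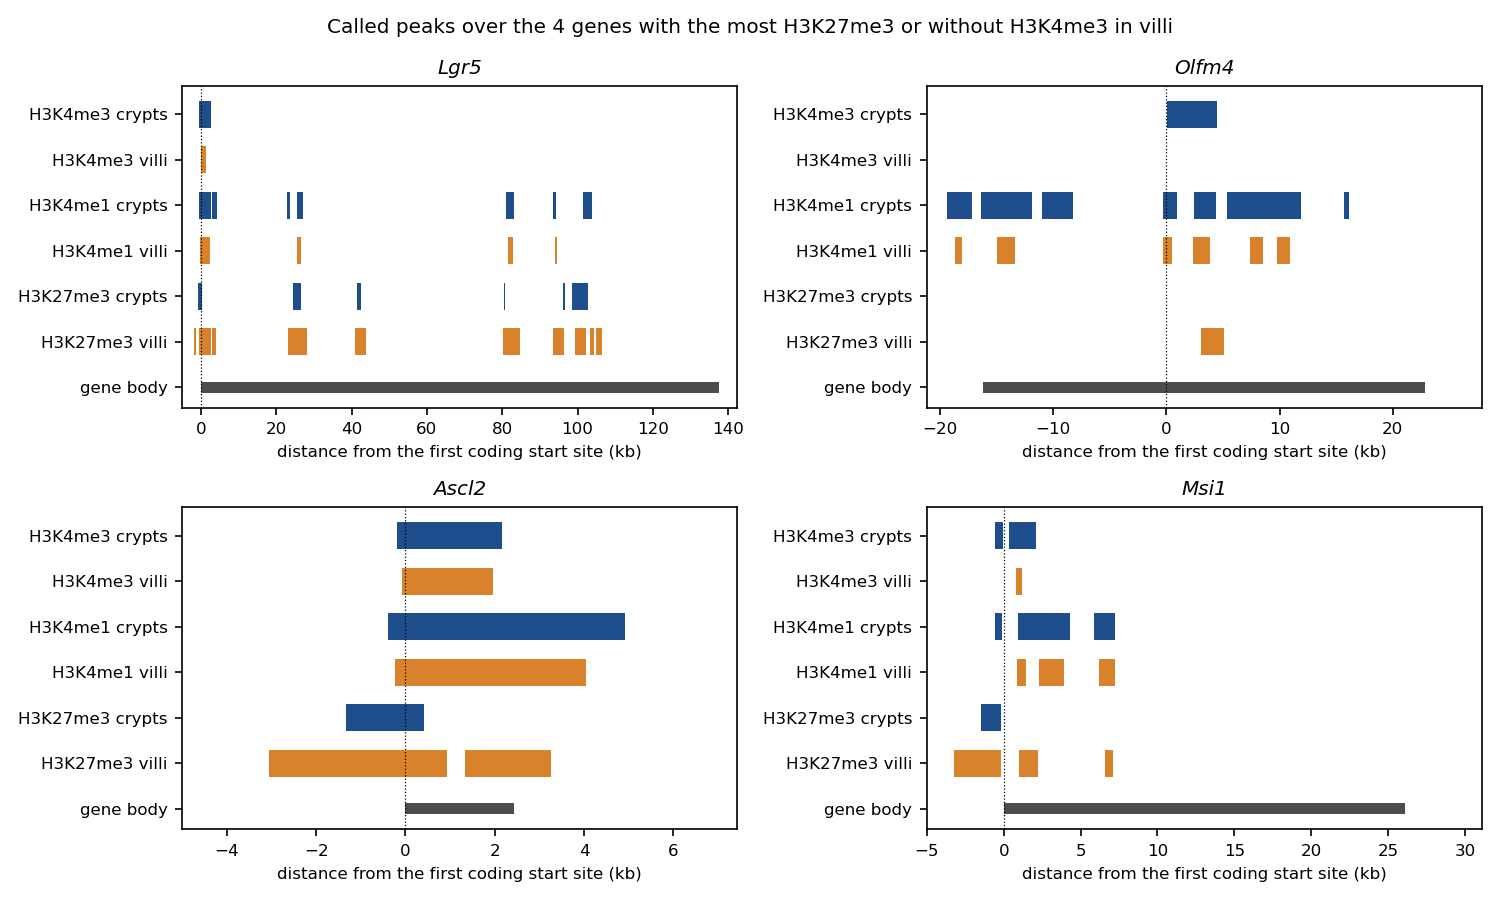
Called peaks of 3 modifications over Lgr5, Olfm4, Ascl2 and Msi1 in crypts (blue) and villi (orange), by distance in kb from the first coding start site in the direction of transcription, with the gene body in grey and 5 kb on either side. The villi H3K27me3 bars are wider or more numerous than those of crypts at each of the 4 genes, with 10 against 6 at Lgr5, and the H3K4me3 bars are shorter or missing.

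Lists of related genes gave the surroundings of these values. In a list of 18 other stem cell signature genes, H3K4me3 at start sites was at least 1.5-fold narrower in villi at 6 of the 17 with a peak and wider at 0, with a median log2 ratio, villi over crypts, of -0.39 over the 16 with a peak in both. The 6 were Sorbs2 (3508 bp in crypts, 1221 bp in villi), Slc12a2, an ion cotransporter (5598 bp and 2122 bp), Cdca7 (5419 bp and 2323 bp), Mex3a (2118 bp and 1237 bp), Lrig1, an inhibitor of EGF receptors (9386 bp and 4782 bp), and Fstl1, whose 566 bp peak in crypts had none in villi. Over the whole window, Prom1 (1.62-fold) and Rgmb (1.6-fold) were lower as well. The median was -0.54 over the 9 members with a peak in both compartments and -0.04 over all 12361 such genes. H3K27me3 was called higher in villi at 5 of the 6 genes of this list that carried it, namely Fstl1, Mex3a, Nrn1, Slc12a2 and Slco3a1, beside 56.7% of all genes with this modification. In a list of 26 Wnt pathway genes, 6 of 24 were narrower and 0 wider. Of these, 4 were among the 6 Wnt targets: Ephb3, a receptor that positions crypt cells (3937 bp in crypts, 1270 bp in villi), the cyclin Ccnd1 (6169 bp and 2883 bp), the adhesion receptor Cd44 (2500 bp and 1335 bp) and Ephb2 (3610 bp and 2203 bp). Over the whole window, Ephb3 and Cd44 were called lower too, whereas Ccnd1 (1.15-fold) and Ephb2 (1.21-fold) were not. The other 2 were the inhibitors Nkd2 and Sfrp1, with peaks of 765 bp and 749 bp in crypts and none in villi. None of the 13 receptors, intracellular components and TCF/LEF factors with a start-site peak was called narrower. H3K27me3 was higher in villi at 6 of the 12 Wnt pathway genes that carried it: Axin1, Dkk1, Ephb2, Lgr6, Notum and Tcf7l1. That share of 50% is no higher than the 56.7% of all genes. Lgr6 also had a 496 bp H3K4me3 peak away from its start sites in crypts alone.

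Markers of other cells were examined in the same way. All 11 villus enterocyte markers had H3K4me3 at a start site in both compartments, and the median log2 ratio of its width was 0.22. Krt20 (5437 bp in crypts, 9376 bp in villi) and lactase, Lct (3893 bp and 6239 bp), were called wider and 0 narrower, though over the whole window Krt20 differed by 1.35-fold and was not called, and none of the 11 carried H3K27me3 in either compartment. Of 6 lymphocyte markers, 5 had H3K4me3 at a start site in villi and 0 in crypts: Ptprc, Cd3e, Cd3g, Cd8a and Gzma, with widths in villi of 1608, 1181, 2180, 829 and 561 bp. Cd3e and Cd3g also had more H3K27me3 in villi, 9843 bp against 0 bp and 9932 bp against 3506 bp. Of 6 mesenchymal markers, 3 carried H3K4me3 in each compartment, and Col1a1 had it at a start site in villi alone (791 bp). H3K27me3 was higher in villi at 3 of the 4 mesenchymal markers that carried it, Col1a1, Des and Pdgfra, with the same background of 56.7%. Of 5 Paneth cell markers, Ang4 had an H3K4me3 peak, 982 bp in villi, and the other 4 had none in either compartment. The part of these differences in the values of the 10 stem cell genes was not tested.

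**Figure D4:**
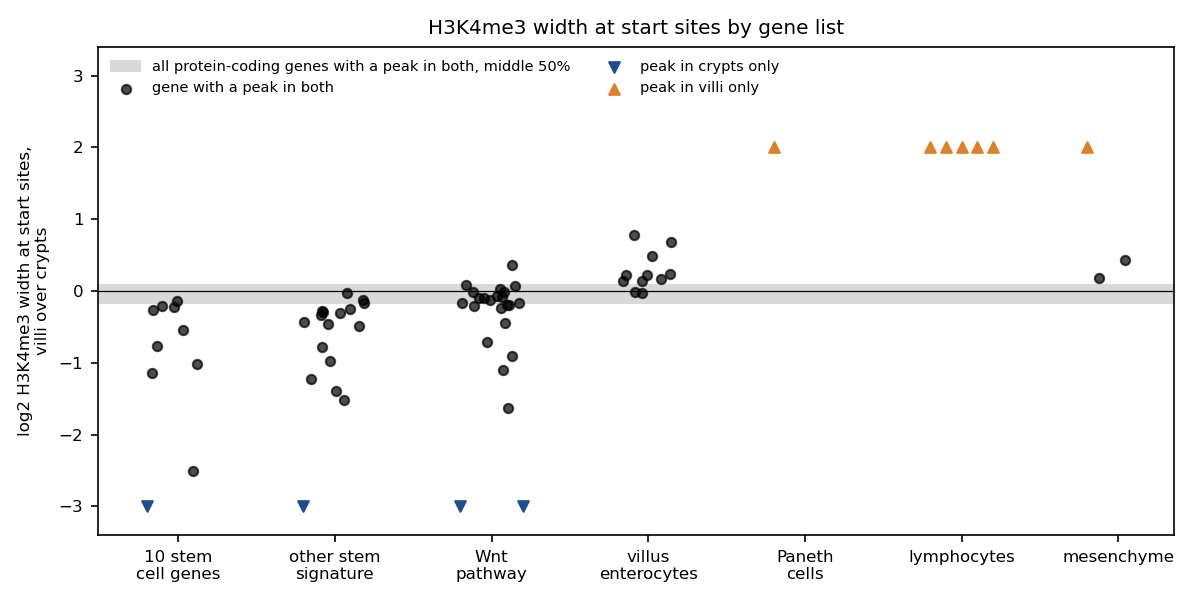
Log2 ratio of H3K4me3 width at start sites, villi over crypts, for each gene of 7 lists with a peak in both compartments (black points), with genes that had a peak in 1 compartment alone as triangles at fixed heights, and the middle 50% of all protein-coding genes in grey (-0.16 to 0.08). All 9 points of the stem cell genes lie below 0, most enterocyte points lie above it, and all 5 lymphocyte markers with a peak are triangles for villi alone.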

How the data were processed

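ChIP-seq libraries of crypts and villi were used for 4 of the 5 modifications of the series. Of 12 samples, the 2 inputs and the 2 H3K9me2 lists were not used here. The authors mapped paired reads to the mouse (mm10) and fly genomes with Bowtie 1.1.2, removed duplicates with samblaster and called peaks per library with MACS2 2.1.1 at a p-value of 1e-10. The lists do not name the scale of a peak's score. Its lowest value was 10.0 in every list, which is the authors' p-value threshold on a −log10 scale. The deposited score was therefore read as a −log10 p-value. It depends on depth, which is unknown, is not scaled by the spike-in, and was used for ranks within a list and, in the alternatives, to select peaks, once by the same minimum of 20 in both compartments. The names of the lists pair each library with its input. Of all peaks, 0 lay beyond the chromosome ends of GRCm38, the assembly that mm10 names.

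Covered bases, overlaps of at least 1 bp and edges were computed with Python 3.11.15, NumPy 2.4.6 and pandas 2.3.3. The numbers of crypts peaks with a counterpart were checked against bedtools 2.31.1. Covered bases, overlaps and calls were tested on simulated peaks, and the edges were not. Start sites are those of protein-coding transcripts, and a start-site peak lies within 1 kb of one. Genes and lists were chosen with earlier results of these data known. All 10 genes are named, and genes of other lists where a count was 5 or fewer or they passed the 1.5-fold limit for H3K4me3 or H3K27me3. Alternatives covered the window, the fold, the overlap rule, the start-site window and subsets of the lists by score. Figures were drawn with Matplotlib 3.10.9.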

Additional observations from a re-analysis of the deposited data

How the results depend on the processing

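With 1 library per group no result has a replicate error, and the unknown depth limits every peak that was not called. Of 120 counts and sums recomputed under 13 alternatives, 90 stayed within 1.5 times their value, and of 116 ratios of single genes 102 kept their call. A ratio needs a peak in both compartments, so genes and settings in which a compartment had none are not among the 116. Calls lost in this way are not counted there, such as those of H3K4me3 at Lgr5, Tnfrsf19 and Msi1 with the top 50% of each list. No called ratio changed sign, but Sox9 H3K4me1, not called at a log2 ratio of -0.15, turned to 1.78 with the top 50% or a score of at least 20 and to 0.0057 with the gene body alone. No paired analysis was possible because each group holds 1 library.

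With the top 50% of each list, the genes called lower in villi were 2 for H3K4me3 (Smoc2 and Znrf3) and 3 for H3K4me1. In that setting 1 gene (Sox9) was called higher for H3K4me1 and 3 (Lgr5, Ascl2 and Msi1) for H3K27me3. Start-site peaks were then found at 5 genes in crypts and 3 in villi for H3K4me3, 6 in crypts and 8 in villi for H3K4me1 and 1 in crypts for H3K27me3. In this setting 10 crypts and 5 villi H3K4me1 peaks and 0 villi H3K4me3 peaks had no counterpart, and 0 H3K4me3 peaks overlapped H3K27me3 in either compartment. With a score of at least 20, 3 genes were higher for H3K27me3 and 1 for H3K4me1, and 5 H3K27me3 and 0 H3K4me3 villi peaks had no counterpart. A fold of 2 left 3 genes lower for H3K4me1.

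With equal numbers of peaks, 1 crypts and 6 villi H3K27me3 peaks and 0 villi H3K4me3 peaks had no counterpart, and 2 villi H3K4me3 peaks overlapped H3K27me3 against 3 in crypts. An overlap of 500 bp left 2 in each compartment. A reciprocal overlap of 50% left without a counterpart 8 crypts and 7 villi peaks of H3K4me3, 28 and 20 of H3K4me1, and 7 and 17 of H3K27me3. With a counterpart allowed within 1 kb, 1 crypts H3K4me3 peak had none. Axin2 passed the limit for H3K4me3 in 3 settings, the gene body alone among them, and Axin2 H3K4me1 was called lower (-0.63) with the top 50% or a score of at least 20. Smaller lists hold fewer peaks by construction, and the cause of the other shifts was not tested.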
